A study of Mus musculus with 24 samples.

Results

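The genes described are those of the T cell receptor complex and its coreceptors: Cd3e, Cd3d, Cd3g and Cd247, the coreceptors Cd4, Cd8a and Cd8b1, and the accessory genes Cd2, Cd5 and Skap1. They were found by gene name among the probes of the array, and the 10 genes had 14 of its 55681 probes, all of which were well above background on all 24 arrays. Cd247, Cd4, Cd8a and Cd2 had a pair of probes each, of which the brighter on average was used for the gene.

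Spleens were taken 24 hours after total body irradiation in an X-ray irradiator. B10.BR mice received 300, 500 or 900 cGy and BALB.K mice 300, 400 or 800 cGy, and unirradiated mice of each strain (0 cGy) were taken at rest. Each of the 8 groups had 3 arrays, and each array held RNA of whole splenocytes pooled from 3 mice, so that p-values measure the spread between pools. The labels call 800 and 900 cGy myeloablative. They give no age, sex or further genotype, and name no transgene or second agent.

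The T cell receptor recognises peptides bound to MHC molecules, and it has no signalling tail of its own. The CD3 chains and the zeta chain, which Cd247 encodes, carry the motifs that are phosphorylated when the receptor is engaged. CD8 holds the receptor on MHC class I and marks cytotoxic T cells, whereas CD4 does so on MHC class II and marks helper and regulatory T cells. In the mouse spleen some dendritic cells also carry CD4 and others carry the CD8 alpha chain, while the beta chain, which Cd8b1 encodes, is a T cell protein. The spleen is a large store of mature T cells, and lymphocytes are among the cells most sensitive to radiation.

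The probes decide what is measured, so those behind the contrast of CD8 with CD4 and CD3 are shown 5′ to 3′ as the scanner files give them, in mm9 coordinates. Where a run of 30 bases is printed it is the 3′ end of a probe of 60 bases, and capitals mark AATAAA, the signal that precedes the polyadenylation site of many transcripts.
Cd8b1, chr6:71287231-71287290, plus strand: ctctcgtggcttatatatttcttctctcac
Cd8a, chr6:71328911-71328970, plus strand: tctatctattgttactatcattttatacct
Cd8a, other probe, chr6:71323885-71323944, plus strand: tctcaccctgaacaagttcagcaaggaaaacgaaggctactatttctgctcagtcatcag
Cd4, chr6:124814711-124814770, minus strand: acagaaaAATAAAggctataAATAAAatgc
Cd4, other probe, chr6:124817706-124817765, minus strand: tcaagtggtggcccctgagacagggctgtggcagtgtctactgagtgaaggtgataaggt
Cd3e, chr9:44806828-44806887, minus strand: taatgcaaaaggcAATAAAgtgtattggct
Cd3d, chr9:44794171-44794402, plus strand: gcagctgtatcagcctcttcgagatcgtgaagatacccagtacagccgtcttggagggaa

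AATAAA stood in 4 of the 14 probes (those used for Cd3e, Cd4, Cd2 and Skap1) and in 10.1% of all probes of the array on their own strand, and on the opposite strand in 0 of the 14 and in 3.74% of all. The letters describe the probe and say nothing of which polyadenylation site was used. A probe for Cd3d, one for Cd247 and one for Cd2 cover 232, 1019 and 3180 bases of the genome with their 60 bases, so that these 3 cross a splice junction. Exons and untranslated regions of mm9 were not analysed here.

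On each array 66.95% to 76.96% of the probes were well above background, the 75th percentile ranged over 830.3 to 1235 units of intensity, and 0 spots of these genes were saturated. Slide 1 held the B10.BR arrays at 0 and 300 cGy and 2 at 500 cGy. Slide 2 held the last array at 500 cGy, the B10.BR arrays at 900 cGy, the BALB.K arrays at 0 cGy and 1 at 300 cGy, and slide 3 held the other BALB.K arrays. The strains at rest thus lay on different slides. Ddx3y, a gene of the Y chromosome, was above background on the 12 B10.BR arrays and on 6 of the 12 BALB.K arrays, so that the BALB.K groups differed in that signal. Exocrine pancreas markers made up 0.000573% to 0.674% of the signal of an array. The 9 T cell markers found on the array were above background on all 24. In whole spleen, fewer cells of a type and less RNA per cell cannot be told apart.

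Levels are log2 signal relative to the 75th percentile of the array. A change is a difference of such levels, given ± its standard error from limma (3 arrays against 3). "Rose" and "fell" are used for a Benjamini-Hochberg adjusted p below 0.05 over all 29588 features.

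In irradiated B10.BR spleens 9 of the 10 genes fell at each of the 3 doses, and Cd4 was the exception. At 300 cGy against 0 cGy 9 fell and 23.0% of all features fell. At 500 cGy 9 fell and Cd4 rose, against 26.8% of features lower and 22.1% higher, and at 900 cGy 9 fell against 28.4% of features. In BALB.K 8 fell at 300 cGy, where 26.0% of features fell, 9 at 400 cGy (26.0%) and 9 at 800 cGy (29.2%). The median change of the 10 genes was -1.01, -1.55 and -2.27 at 300, 500 and 900 cGy in B10.BR, while that of all features was -0.07, -0.07 and 0.0036. In BALB.K it was -0.47, -0.97 and -1.73 at 300, 400 and 800 cGy, and that of all features was -0.12, 0.007 and 0.08.

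**Figure D1:**
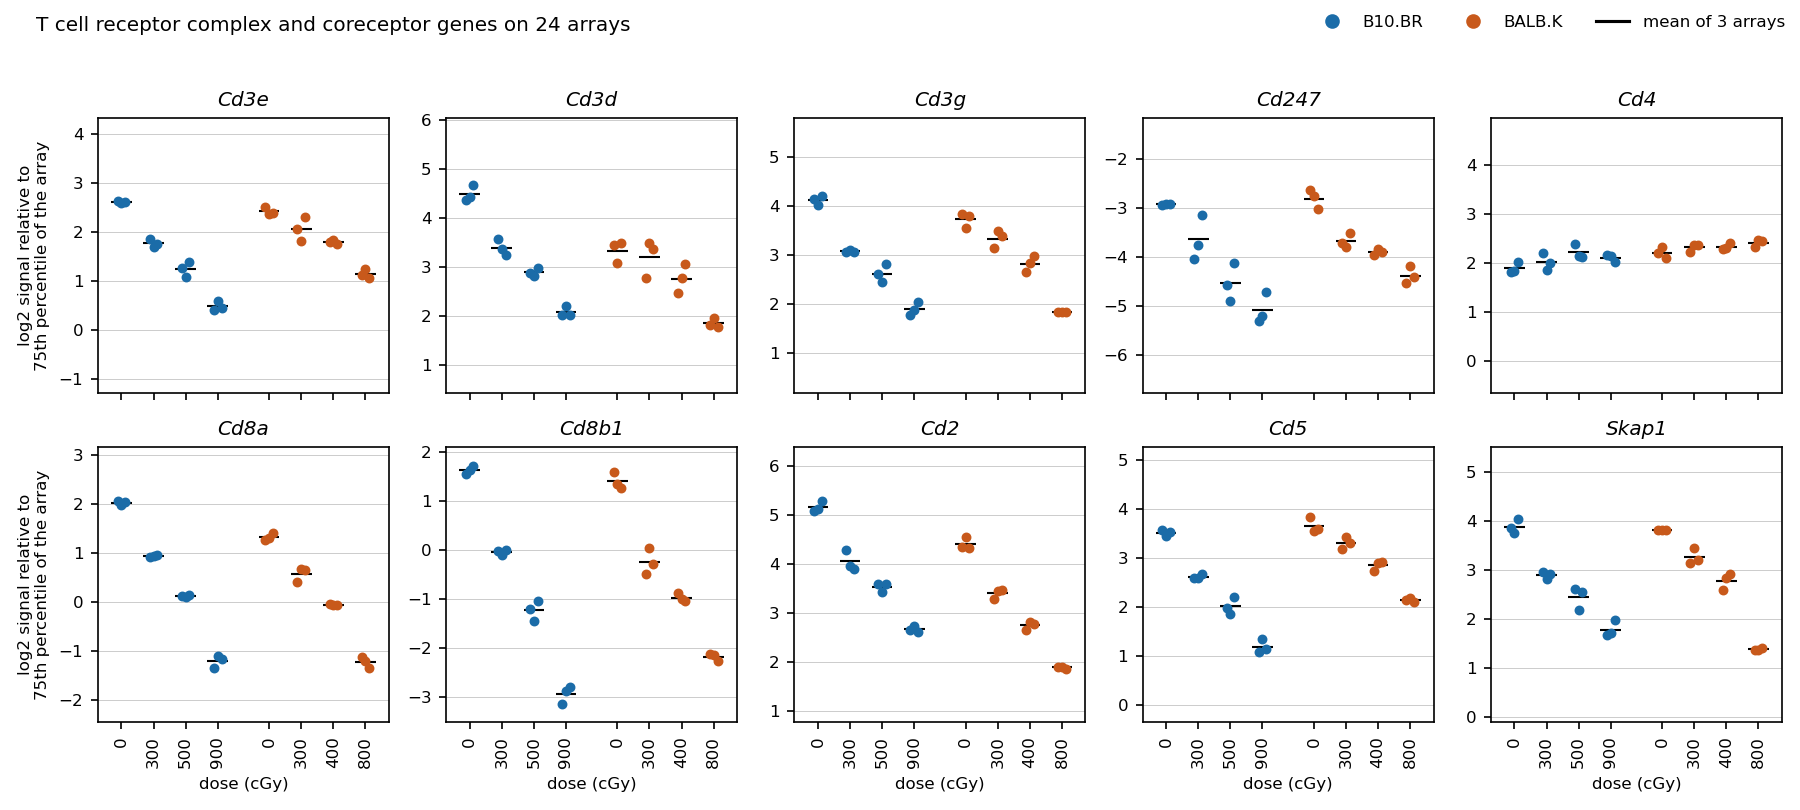
Level of each gene on the 24 arrays (points; y axis, log2 signal relative to the 75th percentile of the array, the same span in every panel) by strain and dose in cGy, with the mean of 3 arrays as a line. The levels of 9 genes step down with dose in both strains, and those of Cd4 stay between 1.83 and 2.47.

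Cd8b1 had the largest fall of the 10 genes at each dose in both strains. This gene, the CD8 beta chain, had levels of 1.54, 1.62 and 1.71 in unirradiated B10.BR, -0.021, -0.0997 and 0 at 300 cGy, -1.21, -1.45 and -1.04 at 500 cGy and -3.14, -2.89 and -2.796 at 900 cGy. No 2 of these 4 groups overlapped. The change against 0 cGy was -1.67 ± 0.13 (adjusted p = 1.66e-08) at 300 cGy, -2.86 ± 0.13 (adjusted p = 8.42e-12) at 500 cGy and -4.57 ± 0.13 (adjusted p = 1.09e-14) at 900 cGy, which left 4.22% of the unirradiated signal. In BALB.K the levels of Cd8b1 were 1.58, 1.35 and 1.26 at 0 cGy, -0.49, 0.038 and -0.29 at 300 cGy, -0.88, -1.004 and -1.04 at 400 cGy and -2.12, -2.15 and -2.27 at 800 cGy. Again no groups overlapped. The changes were -1.64, -2.37 and -3.57 (each ± 0.13), with an adjusted p of 1.39e-13 at 800 cGy, where 8.40% of the unirradiated signal was left.

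Cd8a, the alpha chain, fell in the same order of doses. Its levels were 2.06, 1.98 and 2.04 in unirradiated B10.BR, 0.93, 0.94 and 0.95 at 300 cGy, 0.13, 0.11 and 0.14 at 500 cGy and -1.35, -1.11 and -1.16 at 900 cGy. In BALB.K they were 1.26, 1.30 and 1.41 at 0 cGy, 0.41, 0.67 and 0.66 at 300 cGy, -0.043, -0.056 and -0.062 at 400 cGy and -1.11, -1.19 and -1.35 at 800 cGy. Within each strain no 2 groups overlapped. At 300 cGy its change was -1.09 in B10.BR and -0.75 in BALB.K, and at 400 cGy in BALB.K it was -1.38, while Cd2 changed by -1.12, -1.01 and -1.66 in these comparisons. The change at 900 cGy was -3.23 ± 0.08 in B10.BR (adjusted p = 3.9e-15; 10.6% of the unirradiated signal left), and at 800 cGy it was -2.54 ± 0.08 in BALB.K (adjusted p = 5.24e-14; 17.1% left).

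The other Cd8a probe fell too, except at the lowest dose in B10.BR. There its levels were -1.54, -1.36 and -0.997 at 300 cGy, against -0.84, -1.12 and -1.20 at 0 cGy, and the change of -0.25 ± 0.17 did not pass (adjusted p = 0.277). At 900 cGy it was -2.28 ± 0.17 in B10.BR (adjusted p = 1.76e-09). In BALB.K at 800 cGy it was -1.39 ± 0.17 (adjusted p = 9.57e-07), and between 400 and 800 cGy this probe changed by 0.087 ± 0.17 (adjusted p = 0.772), where the probe used for the gene fell.

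Cd4 did not fall at any dose in either strain. Its levels in B10.BR were 1.83, 1.83 and 2.02 at 0 cGy, 2.21, 1.86 and 1.99 at 300 cGy, 2.39, 2.14 and 2.12 at 500 cGy and 2.16, 2.14 and 2.01 at 900 cGy. The groups at 300 and 900 cGy overlapped with that at 0 cGy, and the group at 500 cGy lay above it. The change was 0.13 ± 0.10 at 300 cGy (adjusted p = 0.339, 95% interval -0.081 to 0.34), 0.33 ± 0.10 at 500 cGy (adjusted p = 0.0111) and 0.21 ± 0.10 at 900 cGy (adjusted p = 0.0819, 95% interval 0.0024 to 0.42). The rise at 500 cGy did not pass without replicate 1 at 500 cGy (0.24, adjusted p = 0.0772), within slide 1 (0.37, adjusted p = 0.0698), in a fit on only the arrays compared (adjusted p = 0.0586) or with the mean of both probes (0.089, adjusted p = 0.437).

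In BALB.K, Cd4 had levels of 2.21, 2.32 and 2.10 at 0 cGy, 2.24, 2.36 and 2.37 at 300 cGy, 2.28, 2.31 and 2.41 at 400 cGy and 2.33, 2.47 and 2.45 at 800 cGy. At 800 cGy the 3 arrays lay above those at 0 cGy, and at 300 and 400 cGy they overlapped. The changes were 0.11, 0.12 and 0.21 (each ± 0.10), with adjusted p of 0.379, 0.32 and 0.0837, and the 95% interval at 800 cGy ran from -0.0024 to 0.42. The scaling touched these calls: Cd4 at 900 cGy in B10.BR and at 800 cGy in BALB.K passed as a rise with quantile normalization (0.31 and 0.27), with normexp (0.23 and 0.25) and with spike-in scaling (0.60 and 0.56), which moved the median of all features to 0.389 and 0.434.

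The other Cd4 probe, in another stretch of the gene, did not fall either. It was dim, at 53.61 to 111.9 units of intensity against 3352 to 6325 for the probe used, which leaves less room to show a fall. In B10.BR its levels were -3.69, -3.73 and -3.42 at 900 cGy, against -3.86, -3.56 and -3.54 at 0 cGy, a change of 0.04 ± 0.12 (adjusted p = 0.81). In BALB.K they were -3.54, -3.47 and -3.35 at 800 cGy, against -3.93, -3.86 and -3.93 at 0 cGy, and this rise of 0.45 ± 0.12 passed (adjusted p = 0.00383). The levels of different probes are not comparable with each other, so only changes were compared.

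**Figure D2:**
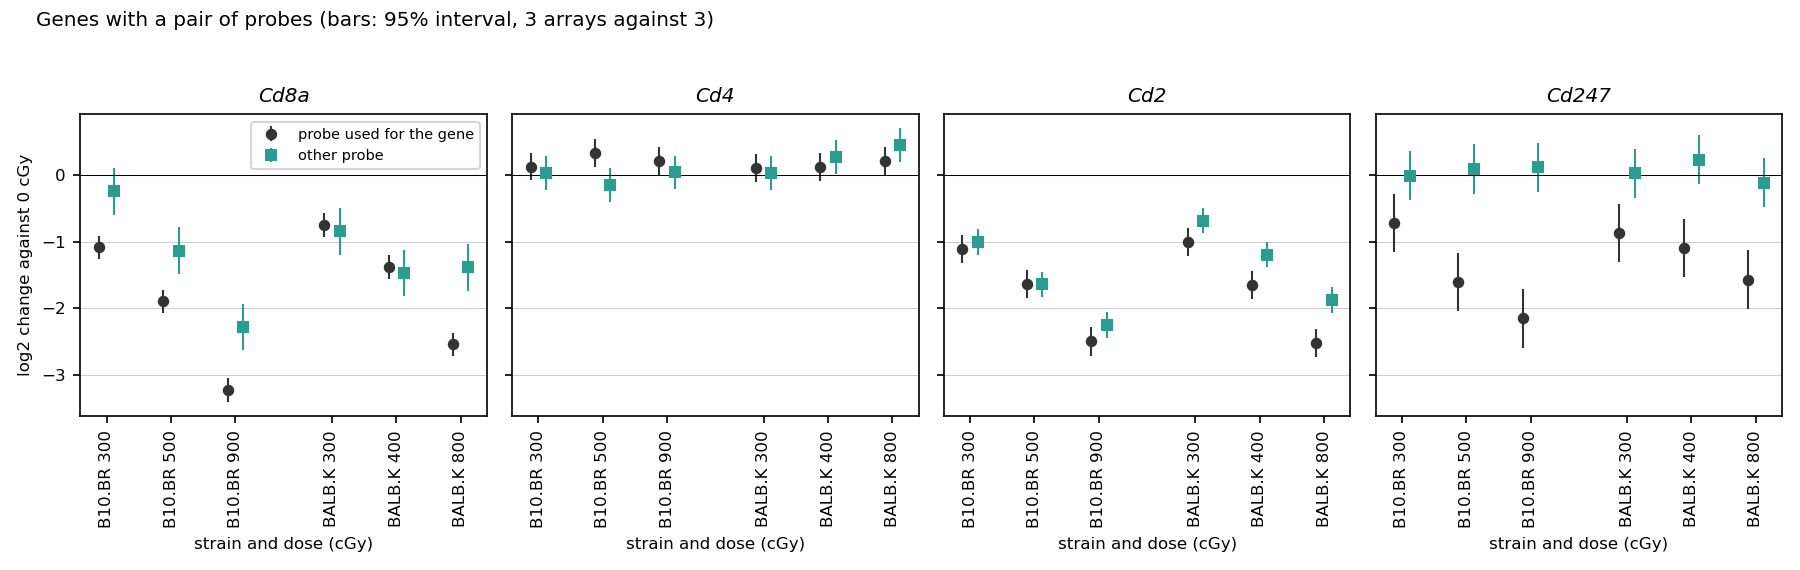
Log2 change against 0 cGy (y axis; bars, 95% interval of the fit, 3 arrays against 3) for the genes with a pair of probes, by strain and dose. Neither Cd4 probe falls. The Cd4 probe used rises by 0.33 at 500 cGy in B10.BR and the other by 0.45 at 800 cGy in BALB.K. Both Cd2 probes fall, and of the Cd247 probes, both of them dim, only that used for the gene falls.

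The contrast of CD8 with CD4 was tested on differences within an array, which a scaling factor common to an array cannot change; such a difference shows unequal change of both genes. Relative to unirradiated mice, Cd8b1 minus Cd4 averaged -1.80 ± 0.15, -3.19 ± 0.25 and -4.78 ± 0.25 (SD, n = 3 arrays each) at 300, 500 and 900 cGy in B10.BR, and -1.75 ± 0.21, -2.49 ± 0.15 and -3.78 ± 0.14 at 300, 400 and 800 cGy in BALB.K. The Cd8b1 to Cd4 ratio at the highest dose was thus 3.64% of the unirradiated ratio in B10.BR and 7.27% in BALB.K. Cd8a minus Cd4 averaged -1.22, -2.22 and -3.44 in B10.BR and -0.86, -1.50 and -2.75 in BALB.K at the same doses. Over the 9 irradiated arrays against the 3 unirradiated ones, Cd8b1 minus Cd4 was lower by -3.25 in B10.BR and by -2.68 in BALB.K, and Cd8a minus Cd4 by -2.29 and -1.71. In each of these 4 every irradiated array lay below every unirradiated one, and the exact two-sided permutation p was 0.00909, the smallest that 9 against 3 arrays allow (0.0104 adjusted over the 8 tests of CD8 against Cd4 and Cd3e).

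The CD8 genes also fell further than Cd3e, a chain that all T cells carry in their receptor complex. Cd3d and Cd3g were not tested against the CD8 genes in this way. Within slide 1, Cd8a, Cd3d and Cd3g changed by -1.09, -1.10 and -1.04 at 300 cGy in B10.BR. At 500 cGy they changed by -1.91, -1.64 and -1.59. Cd8b1 minus Cd3e averaged -0.83 ± 0.07, -1.50 ± 0.06 and -2.44 ± 0.16 (SD, n = 3 arrays each) at 300, 500 and 900 cGy in B10.BR and -1.27 ± 0.46, -1.73 ± 0.09 and -2.30 ± 0.07 at 300, 400 and 800 cGy in BALB.K. Over the irradiated arrays it was -1.59 in B10.BR and -1.77 in BALB.K (exact permutation p = 0.00909 in both, adjusted p = 0.0104). Cd8a minus Cd3e differed less, by -0.63 in B10.BR (exact permutation p = 0.00909, adjusted p = 0.0104) and by -0.80 in BALB.K (exact permutation p = 0.0182, adjusted p = 0.0182), where 1 array at 300 cGy overlapped with the unirradiated ones. This BALB.K value did not pass without replicate 2 or 3 at 0 cGy (-0.78 and -0.74, exact permutation, adjusted p = 0.0727 each). With the mean of both Cd8a probes the value in B10.BR was -0.20 and did not pass (adjusted p = 0.409). Within slide 1, Cd8b1 minus Cd4 was -2.41 and Cd8b1 minus Cd3e -1.11 over the 5 irradiated against the 3 unirradiated B10.BR arrays (exact permutation, adjusted p = 0.0357 each). Within slide 2 only 1 irradiated BALB.K array stood beside the 3 unirradiated ones, and its values were -1.91 and -1.51.

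**Figure D3:**
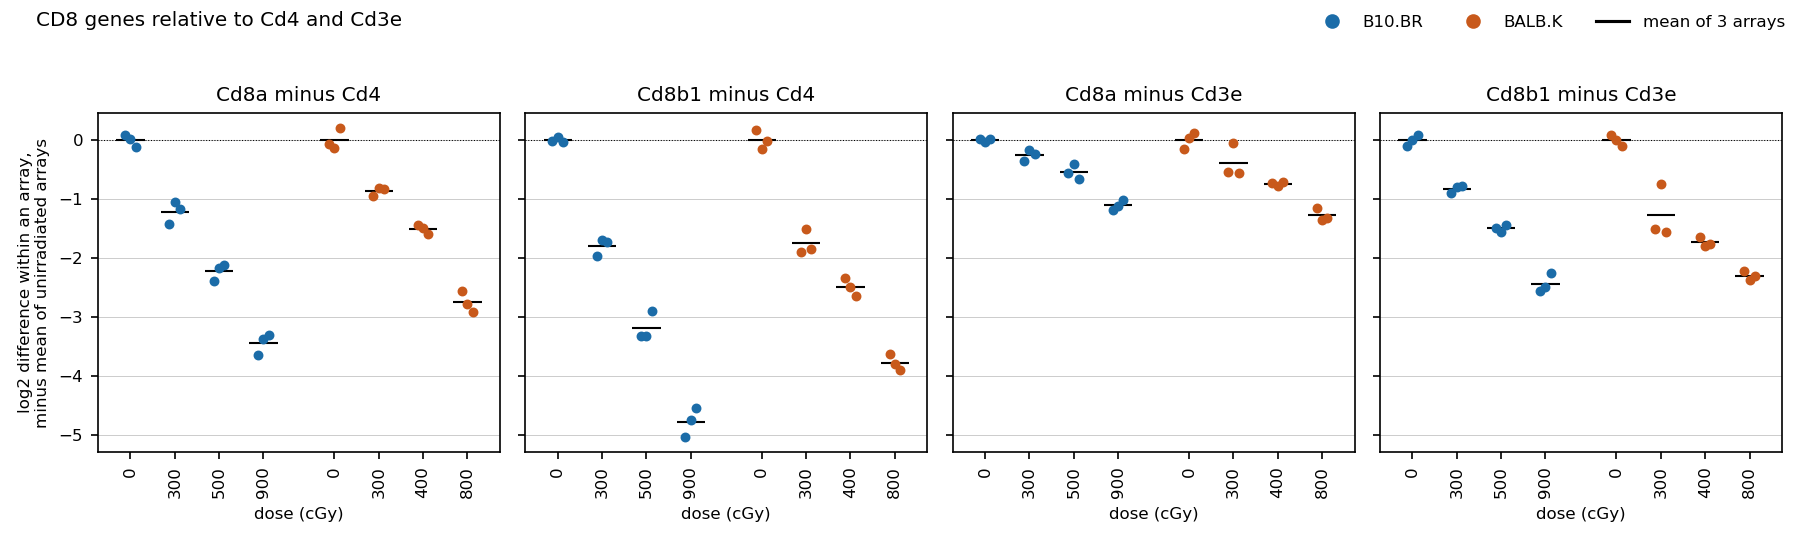
Differences within an array between a CD8 gene and Cd4 or Cd3e (y axis, log2, minus the mean of the strain's unirradiated arrays) by strain and dose in cGy; points are arrays and lines are means of 3. The differences from Cd4 reach -4.78 for Cd8b1 at 900 cGy in B10.BR, and those from Cd3e stay nearer to 0.

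The epsilon, delta and gamma chains of CD3 fell at every dose in both strains, except Cd3d at 300 cGy in BALB.K. Cd3e, the epsilon chain, had levels of 2.63, 2.60 and 2.61 in unirradiated B10.BR, 1.87, 1.69 and 1.77 at 300 cGy, 1.28, 1.09 and 1.39 at 500 cGy and 0.41, 0.60 and 0.45 at 900 cGy. In BALB.K they were 2.52, 2.37 and 2.40 at 0 cGy, 2.06, 1.82 and 2.31 at 300 cGy, 1.79, 1.83 and 1.75 at 400 cGy and 1.14, 1.26 and 1.07 at 800 cGy. Every irradiated group lay below its unirradiated group, and within BALB.K the groups at 300 and 400 cGy overlapped. The change at 900 cGy was -2.13 ± 0.11 in B10.BR (adjusted p = 1.04e-11; 22.9% of the unirradiated signal left), and at 800 cGy it was -1.27 ± 0.11 in BALB.K (adjusted p = 6.51e-09; 41.4% left). At 300 cGy the changes were -0.84 ± 0.11 in B10.BR (adjusted p = 4.07e-06) and -0.37 ± 0.11 in BALB.K (adjusted p = 0.00803). The BALB.K call at 300 cGy did not pass without replicate 2 at 300 cGy (-0.24, adjusted p = 0.0581), with the slide as a block (-0.37, adjusted p = 0.0587) or within slide 2 (-0.37, adjusted p = 0.147). With spike-in scaling Cd3e did not pass at 300 cGy in B10.BR (-0.51, adjusted p = 0.116) or at 300 and 400 cGy in BALB.K (-0.44 and -0.57, adjusted p = 0.149 and 0.0602).

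Cd3d, the delta chain, had levels of 4.37, 4.42 and 4.67 in unirradiated B10.BR, 3.56, 3.36 and 3.25 at 300 cGy, 2.88, 2.804 and 2.98 at 500 cGy and 2.01, 2.20 and 2.02 at 900 cGy. In BALB.K its levels were 3.43, 3.08 and 3.48 at 0 cGy, 2.77, 3.47 and 3.37 at 300 cGy, 2.46, 2.77 and 3.05 at 400 cGy and 1.82, 1.95 and 1.78 at 800 cGy. The B10.BR groups did not overlap, while the BALB.K arrays at 300 cGy spread over the unirradiated range and below it. Cd3d changed by -2.41 ± 0.17 at 900 cGy in B10.BR (adjusted p = 9.1e-10). In BALB.K the change of -0.12 ± 0.17 at 300 cGy did not pass (adjusted p = 0.58, 95% interval -0.48 to 0.23), that at 400 cGy was -0.57 ± 0.17 (adjusted p = 0.00881) and that at 800 cGy was -1.48 ± 0.17 (adjusted p = 4.67e-07). With spike-in scaling the change at 400 cGy was -0.50 and did not pass (adjusted p = 0.122). With the slide as a block the BALB.K change at 300 cGy was -0.56 and passed (adjusted p = 0.0372), and without replicate 1 at 400 cGy the change at 400 cGy was -0.42 and did not (adjusted p = 0.0622).

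Cd3g, the gamma chain, averaged 4.12 ± 0.10, 3.08 ± 0.02, 2.63 ± 0.18 and 1.91 ± 0.14 at 0, 300, 500 and 900 cGy in B10.BR and 3.73 ± 0.16, 3.34 ± 0.18, 2.83 ± 0.17 and 1.84 ± 0.0065 at 0, 300, 400 and 800 cGy in BALB.K (SD, n = 3 arrays each). Each irradiated group lay below its unirradiated group. The changes in B10.BR were -1.04, -1.49 and -2.22 and those in BALB.K -0.39, -0.90 and -1.89 (each ± 0.11), with the largest adjusted p, 0.00934, at 300 cGy in BALB.K. That call did not pass without replicate 1 at 300 cGy (-0.29, adjusted p = 0.0608), within slide 2 (-0.59, adjusted p = 0.0761) or with spike-in scaling (-0.47, adjusted p = 0.147).

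Cd247 encodes the zeta chain, and its pair of probes disagreed. The probe used for the gene averaged -2.93 ± 0.01, -3.65 ± 0.46, -4.54 ± 0.38 and -5.08 ± 0.32 at 0, 300, 500 and 900 cGy in B10.BR and -2.82 ± 0.19, -3.68 ± 0.15, -3.91 ± 0.07 and -4.39 ± 0.17 at 0, 300, 400 and 800 cGy in BALB.K (SD, n = 3 arrays each). It fell by 2.15 at 900 cGy in B10.BR and by 1.57 at 800 cGy in BALB.K (each ± 0.21; adjusted p = 5.69e-08 and 2.89e-06). The other probe, which the files name for another transcript variant of Cd247, changed by 0.11 ± 0.18 at 900 cGy in B10.BR (adjusted p = 0.624) and by -0.12 ± 0.18 at 800 cGy in BALB.K (adjusted p = 0.593), and it passed in none of the 13 comparisons. The B10.BR call at 300 cGy (-0.72 ± 0.21, adjusted p = 0.00896) did not pass without replicate 1 at 300 cGy (-0.53, adjusted p = 0.0627), with spike-in scaling (-0.39, adjusted p = 0.46), in a fit on only the arrays compared (adjusted p = 0.0536) or with the mean of both probes (-0.37, adjusted p = 0.0569). The probe used was dim, at 21.9 to 148.6 units of intensity. With normexp background correction its changes were smaller, -1.13 at 900 cGy in B10.BR and -1.02 at 800 cGy in BALB.K. The other probe was dim on all arrays, at 32.01 to 67.94 units, which leaves less room to show a fall. Whether the transcript variants changed differently was not tested.

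The sequence of the falling Cd247 probe, which crosses a splice junction at chr1:167786567-167787585 on the plus strand, is set beside the 3′ end of the one that did not fall, at chr1:167800324-167800383 on the same strand.
Cd247: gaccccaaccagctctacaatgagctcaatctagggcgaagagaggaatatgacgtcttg
Cd247, other probe: agtttcctttggcaagacagatataaaaaa

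The accessory genes fell as well. Cd2 encodes an adhesion and costimulatory receptor that binds CD48 in the mouse. Its levels averaged 5.16 ± 0.11, 4.05 ± 0.21, 3.53 ± 0.09 and 2.66 ± 0.06 at 0, 300, 500 and 900 cGy in B10.BR. In BALB.K they averaged 4.41 ± 0.13, 3.40 ± 0.09, 2.75 ± 0.09 and 1.89 ± 0.02 at 0, 300, 400 and 800 cGy (SD, n = 3 arrays each). No groups of a strain overlapped. On the probe used for the gene Cd2 changed by -1.12 at 300 cGy and -2.50 at 900 cGy in B10.BR and by -1.01 at 300 cGy and -2.52 at 800 cGy in BALB.K (each ± 0.10). The difference between the changes was -0.11 ± 0.14 at 300 cGy (95% interval -0.41 to 0.19) and 0.02 ± 0.14 at the highest doses (95% interval -0.28 to 0.32), and neither passed. The other Cd2 probe fell at every dose too, and its change was -2.25 at 900 cGy in B10.BR and -1.88 at 800 cGy in BALB.K (each ± 0.09). On that probe the difference between the changes was -0.32 ± 0.13 at 300 cGy (95% interval -0.60 to -0.05, adjusted p = 0.124) and -0.37 ± 0.13 at the highest doses (95% interval -0.64 to -0.10, adjusted p = 0.0721).

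Cd5, a receptor that dampens T cell receptor signals and is also carried by some B cells, averaged 3.51 ± 0.06, 2.61 ± 0.05, 2.01 ± 0.18 and 1.19 ± 0.14 at 0, 300, 500 and 900 cGy in B10.BR and 3.66 ± 0.15, 3.31 ± 0.11, 2.85 ± 0.10 and 2.14 ± 0.04 at 0, 300, 400 and 800 cGy in BALB.K (SD, n = 3 arrays each). Each irradiated group lay below its unirradiated group. It fell by 2.32 at 900 cGy in B10.BR and by 1.52 at 800 cGy in BALB.K (each ± 0.10; adjusted p = 2.25e-12 and 3.77e-10). Its BALB.K call at 300 cGy (-0.36 ± 0.10, adjusted p = 0.00761) did not pass within slide 2 (-0.47, adjusted p = 0.131). With spike-in scaling Cd5 did not pass at 300 cGy in B10.BR (-0.56, adjusted p = 0.0905) or in BALB.K (-0.43, adjusted p = 0.176). With median scaling Cd3e, Cd3g and Cd5 at 300 cGy in BALB.K were at -0.19, -0.21 and -0.18 and did not pass (adjusted p of 0.234, 0.239 and 0.286).

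Skap1, an adaptor that links the T cell receptor to integrin activation, averaged 3.89 ± 0.14, 2.90 ± 0.07, 2.45 ± 0.23 and 1.78 ± 0.17 at 0, 300, 500 and 900 cGy in B10.BR and 3.81 ± 0.0047, 3.26 ± 0.16, 2.78 ± 0.17 and 1.38 ± 0.02 at 0, 300, 400 and 800 cGy in BALB.K (SD, n = 3 arrays each). The irradiated groups lay below their unirradiated groups. Skap1 was the gene among the 10, beside Cd2, whose change was at least as large in BALB.K at 800 cGy (-2.43 ± 0.12) as in B10.BR at 900 cGy (-2.11 ± 0.12), and this difference of 0.32 ± 0.17 did not pass (adjusted p = 0.23).

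**Figure D4:**
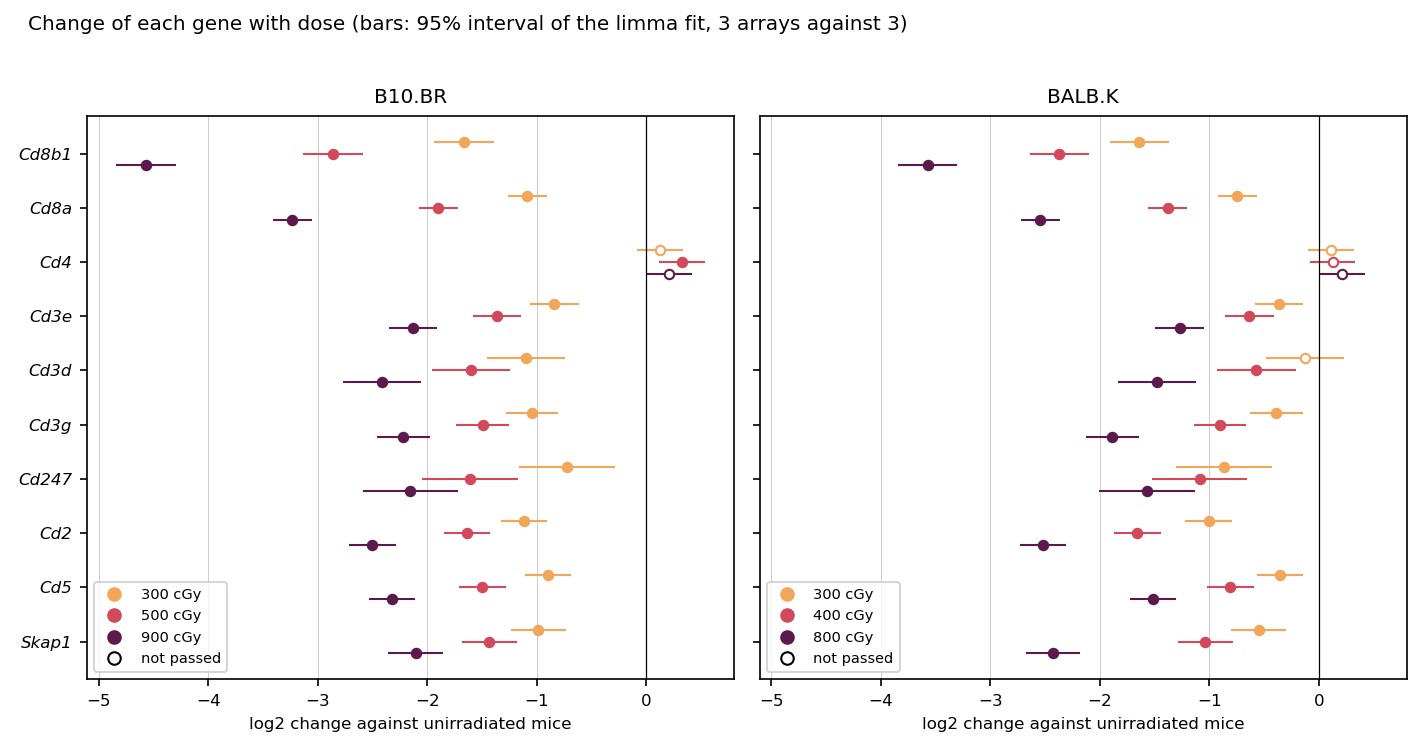
Log2 change of each gene against unirradiated mice (x axis; bars, 95% interval of the limma fit, 3 arrays against 3) at each dose, by strain; open points did not pass. Cd8b1 lies furthest left at every dose, at -4.57 at 900 cGy in B10.BR, and Cd4 lies at or right of 0.

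The slides separated some of these groups, so the fit was repeated with the slide as a block. The 9 genes other than Cd4 then changed by -0.72 to -1.67 at 300 cGy, -1.43 to -2.96 at 500 cGy and -2.25 to -4.85 at 900 cGy in B10.BR. In BALB.K they changed by -0.37 to -1.88 at 300 cGy, -0.65 to -2.73 at 400 cGy and -1.28 to -3.94 at 800 cGy. Cd4 changed by 0.36 at 900 cGy in B10.BR (adjusted p = 0.138) and by 0.077 at 800 cGy in BALB.K (adjusted p = 0.754). In BALB.K the 400 and 800 cGy groups shared no slide with the unirradiated group. The block there rests on the 300 cGy group, which lay on both slides, with 1 array on slide 2. In B10.BR the 900 cGy group shared no slide with the unirradiated group either. For that dose the block rests on the 500 cGy group, again with 1 array on slide 2.

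Neighbouring doses were compared next. From 300 to 500 cGy in B10.BR 6 genes fell further (0.926% of all features fell), and Cd3d, Cd3g, Skap1 and Cd4 did not pass. From 500 to 900 cGy 8 fell further (3.25% of features), all except Cd247 and Cd4. In BALB.K 6 fell further from 300 to 400 cGy (1.60% of features), where Cd3e, Cd3d, Cd247 and Cd4 did not pass, and 8 from 400 to 800 cGy (9.97% of features), all except Cd247 and Cd4. Cd8b1 changed by -1.19 and -1.71 over the steps in B10.BR and by -0.73 and -1.20 in BALB.K (each ± 0.13). Cd4 changed by 0.20, -0.11, 0.011 and 0.084 (each ± 0.10), with the lowest adjusted p at 0.375. The count of 6 from 300 to 500 cGy was 2 within slide 1, where Cd8a and Cd8b1 passed, and 3 without replicate 2 at 500 cGy. The count of 8 from 500 to 900 cGy was 4 in a fit on only the arrays compared and 0 within slide 2, where 1 array at 500 cGy was left. With spike-in scaling the counts were 0 and 2 for the steps in B10.BR and 0 and 3 for those in BALB.K, and with only the arrays compared 0 genes passed from 300 to 500 cGy or from 300 to 400 cGy. The count from 300 to 400 cGy was 7 within slide 3 and 3 without replicate 2 or 3 at 300 cGy or without replicate 1 or 2 at 400 cGy. The share of all features that passed in these other fits is not given here. A lower count in them therefore cannot be read as particular to these genes.

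Without irradiation, 4 genes were higher in B10.BR than in BALB.K, where 22.7% of features were higher, and 1 was lower, where 30.7% were lower. Cd3d was higher by 1.16 ± 0.17 (adjusted p = 2.11e-05), with levels of 4.37, 4.42 and 4.67 in B10.BR against 3.43, 3.08 and 3.48 in BALB.K. Cd2 was higher by 0.76 ± 0.10 (adjusted p = 7.02e-06), Cd8a by 0.70 ± 0.08 (adjusted p = 2.21e-06) and Cd3g by 0.39 ± 0.11 (adjusted p = 0.00857). For Cd3d, Cd2, Cd8a and Cd3g all B10.BR arrays lay above all BALB.K arrays. The same held for Cd3e, which did not pass (2.60 to 2.63 in B10.BR against 2.37 to 2.52 in BALB.K). The share of all features separated in this way is not given here. The other Cd8a probe was higher by 0.16 ± 0.17 and did not pass (adjusted p = 0.432), and the other Cd2 probe was higher by 1.09 ± 0.09 (adjusted p = 2.75e-08). Cd4 was lower in B10.BR by -0.32 ± 0.10 (adjusted p = 0.0124), whereas its other probe had a change of 0.25 ± 0.12 in the opposite direction (adjusted p = 0.0894). With median scaling Cd4 differed by -0.0045 (adjusted p = 0.974), with the mean of both probes by -0.033 (adjusted p = 0.768) and with the slide as a block by -0.46 (adjusted p = 0.0825), and it did not pass in any of these or with only the arrays compared (adjusted p = 0.0679). Cd3g and Cd4 did not pass without replicate 2 of unirradiated BALB.K (0.30 and -0.26, adjusted p = 0.0525 and 0.0579). With spike-in scaling, which moved the median of all features to -0.80, none of the 4 genes passed as higher: Cd3d differed by 0.46 (adjusted p = 0.101), Cd2 by 0.06 (adjusted p = 0.791), Cd8a by 0.0022 (adjusted p = 0.994) and Cd3g by -0.31 (adjusted p = 0.253). In that scaling Cd5 (-0.85, adjusted p = 0.00423), Skap1 (-0.62, adjusted p = 0.0228) and Cd247 (-0.81, adjusted p = 0.0411) passed as lower. With median scaling Skap1 passed in the opposite direction (0.39, adjusted p = 0.0149), and Cd3e and Cd8b1 were higher by 0.50 and 0.55 (adjusted p = 0.00194 and 0.0022). Cd8b1 was also higher with normexp (0.26, adjusted p = 0.0456). Strain and slide cannot be told apart here, since no slide held unirradiated mice of both strains, and a sequence difference between the strains under a probe was not tested. The Y-linked signal differed as well. Ddx3y was above background on all unirradiated B10.BR arrays but not on replicates 2 and 3 of unirradiated BALB.K.

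The change at 300 cGy, the dose that both strains received, was larger in B10.BR for 4 genes (4.87% of features were lower in this difference). These were Cd3d (-0.97 ± 0.24, adjusted p = 0.0144), Cd3g (-0.65 ± 0.16, adjusted p = 0.015), Cd5 (-0.54 ± 0.14, adjusted p = 0.0212) and Cd3e (-0.47 ± 0.15, adjusted p = 0.0482). The difference for Cd8b1 was -0.027 ± 0.18 (95% interval -0.41 to 0.36) and that for Cd4 was 0.016 ± 0.14 (95% interval -0.28 to 0.31), and neither passed. Without replicate 2 of unirradiated BALB.K 2 genes passed, and with the slide as a block 0 did, with 2386 features passing in that fit. The highest doses, 900 cGy in B10.BR and 800 cGy in BALB.K, were not the same. Side by side, Cd3e changed by -2.13 and -1.27, Cd5 by -2.32 and -1.52, Cd3d by -2.41 and -1.48, Cd8a by -3.23 and -2.54 and Cd8b1 by -4.57 and -3.57, and these 5 differences passed (5.93% of features were lower). With the slide as a block 0 of them passed, with 409 features passing in that fit.

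Genes that carry the signal inward from the receptor were examined next. Of a list of 35 T cell receptor signalling genes, all measured, 24, 25 and 26 fell and 3, 4 and 5 rose at 300, 500 and 900 cGy in B10.BR, and 15, 21 and 22 fell and 4, 4 and 6 rose at 300, 400 and 800 cGy in BALB.K. Of all features 23.0%, 26.8% and 28.4% fell and 18.7%, 22.1% and 25.8% rose in B10.BR at these doses, and 26.0%, 26.0% and 29.2% fell and 20.7%, 25.6% and 29.2% rose in BALB.K. In BALB.K at 300 cGy 16 of the 35 passed in neither direction. The list's median change was -0.54, -0.82 and -1.14 in B10.BR and -0.25, -0.51 and -0.91 in BALB.K. Lck, the kinase that CD4 and CD8 bring to the receptor, changed by -1.81 ± 0.10 at 900 cGy in B10.BR and by -1.50 ± 0.10 at 800 cGy in BALB.K. Zap70, the kinase that binds the phosphorylated CD3 and zeta chains, changed by -1.58 and -1.13 (each ± 0.14), and Lat, the membrane adaptor it phosphorylates, by -2.23 and -1.35 (each ± 0.16). Cd28, the costimulatory receptor, changed by -1.54 and -1.80 (each ± 0.14). Each of these fell at every dose in B10.BR, and in BALB.K at 300 cGy Zap70, Lat and Cd28 did not pass.

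Fyn, a kinase related to Lck that many cell types express, rose at every dose in both strains, by 0.24 ± 0.07 at 900 cGy in B10.BR (adjusted p = 0.00429) and by 0.41 ± 0.07 at 800 cGy in BALB.K (adjusted p = 3.05e-05). Lcp2, an adaptor that myeloid cells and platelets also use, was chosen after its values were seen because it too rose at every dose, by 0.97 ± 0.13 at 900 cGy in B10.BR and by 1.52 ± 0.13 at 800 cGy in BALB.K.

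**Figure D5:**
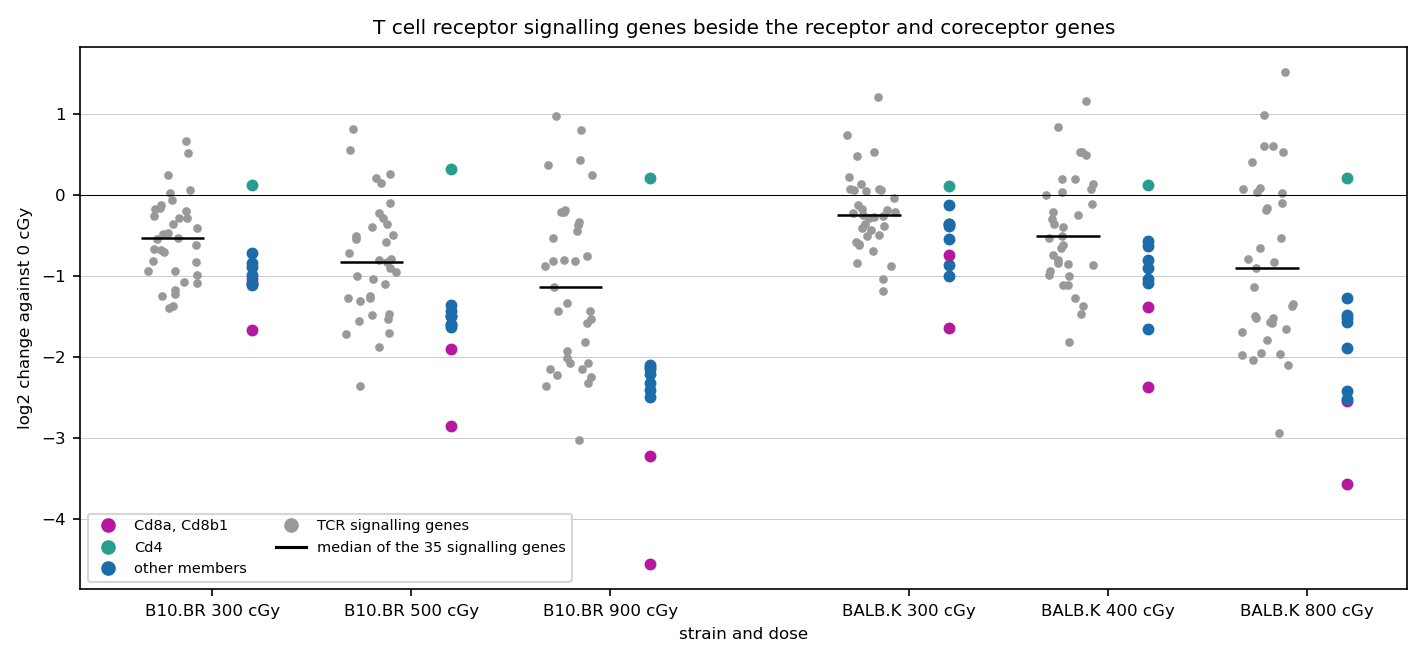
Log2 change against 0 cGy (y axis) of the 35 T cell receptor signalling genes (grey, with their median as a line) and of the 10 receptor and coreceptor genes (coloured) by strain and dose. The medians of the signalling genes lie between -0.25 and -1.14, and Cd8b1 lies below all 35 at every dose.

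Of 12 other genes of CD4 T cells 11 were measured, and 3, 2 and 1 rose and 3, 4 and 5 fell at 300, 500 and 900 cGy in B10.BR. In BALB.K 7, 6 and 2 rose and 2, 3 and 4 fell at 300, 400 and 800 cGy. Against 18.7% to 25.8% of all features higher and 23.0% to 28.4% lower in B10.BR, and 20.7% to 29.2% higher and 26.0% to 29.2% lower in BALB.K, several of these counts lie near the background. Tnfrsf4, the activation receptor OX40, rose at 300 cGy by 0.99 ± 0.13 in B10.BR and by 0.997 ± 0.13 in BALB.K, and Tnfsf8, the ligand of CD30, rose by 1.38 ± 0.19 in BALB.K. Cxcr5, a homing receptor of follicular helper T cells and of B cells, fell by 1.01 ± 0.16 at 300 cGy in B10.BR. The list's summed signal, in units of the 75th percentile of an array, was 44.44 to 46.31 in B10.BR at 0 cGy, 34.03 to 36.03 at 300 cGy, 26.51 to 33.91 at 500 cGy and 20.75 to 22.77 at 900 cGy, and 36.34 to 43.83 in BALB.K at 0 cGy, 35.69 to 44.36 at 300 cGy, 30.83 to 37.15 at 400 cGy and 21.52 to 23.78 at 800 cGy.

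Of 15 genes of CD8 T cells and cytotoxic cells 6, 7 and 8 fell and 4, 3 and 2 rose at 300, 500 and 900 cGy in B10.BR, and 4, 8 and 9 fell and 2, 2 and 1 rose at 300, 400 and 800 cGy in BALB.K. Of all features 23.0% to 28.4% fell and 18.7% to 25.8% rose in B10.BR and 26.0% to 29.2% fell and 20.7% to 29.2% rose in BALB.K, so that the falls at 300 cGy in BALB.K lie near the background. Many of them are also expressed by NK cells. Gzmm, a granzyme of cytotoxic cells, fell at 300 cGy by 0.99 ± 0.11 in B10.BR and by 0.95 ± 0.11 in BALB.K, and Klrd1, the NK receptor chain CD94, fell by 0.68 ± 0.09 in B10.BR. Klrk1, the activating receptor NKG2D, rose by 1.17 ± 0.13 in BALB.K. The list's summed signal was 88.98 to 97.56 in B10.BR at 0 cGy, 115.8 to 126.6 at 300 cGy, 118.5 to 126.9 at 500 cGy and 92.1 to 101.5 at 900 cGy, and 68.84 to 72.84 in BALB.K at 0 cGy, 77.9 to 93.22 at 300 cGy, 76.41 to 77.7 at 400 cGy and 56.88 to 65.2 at 800 cGy. It lay above the unirradiated range at the lower doses in both strains, while at the highest dose it overlapped with that range in B10.BR and lay below it in BALB.K. The list's median change was -0.18, -0.26 and -0.73 at 300, 500 and 900 cGy in B10.BR. In BALB.K it was -0.23, -0.31 and -0.81 at 300, 400 and 800 cGy. At the lower doses the sum was thus higher although the median gene of the list was lower.

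Markers of other spleen cells moved with dose as well. Of all features 18.7% to 25.8% rose and 23.0% to 28.4% fell over the doses in B10.BR. In BALB.K 20.7% to 29.2% of all features rose and 26.0% to 29.2% fell. All 10 macrophage markers measured, of 11 listed, rose at every dose in both strains, and their summed signal was 585.1 to 629.2 at 900 cGy against 205.9 to 220.4 at 0 cGy in B10.BR and 532.6 to 571.4 at 800 cGy against 219.2 to 242.6 at 0 cGy in BALB.K. Cd68, a lysosomal protein of macrophages, rose by 2.15 ± 0.20 and Cd163, a haemoglobin scavenger receptor, by 1.99 ± 0.37 at 300 cGy in B10.BR, and Cd5l by 1.91 ± 0.18 and C1qb by 1.47 ± 0.18 in BALB.K. All 10 B cell markers fell at each dose except 1 of them at 300 cGy in BALB.K, and their sum was 52.92 to 58.19 at 900 cGy against 326.1 to 356.7 at 0 cGy in B10.BR and 38.13 to 38.91 at 800 cGy against 271.5 to 276.4 at 0 cGy in BALB.K. Fcer2a, the low-affinity IgE receptor, fell at 300 cGy by 1.18 ± 0.18 in B10.BR and by 1.28 ± 0.18 in BALB.K, Ebf1, a B cell transcription factor, by 1.46 ± 0.10 in B10.BR and Pax5, another, by 1.24 ± 0.17 in BALB.K.

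Of the 13 dendritic cell markers, a list that bears on Cd4 and Cd8a because some of these cells carry them, 7, 7 and 8 fell and 3, 3 and 3 rose at 300, 500 and 900 cGy in B10.BR. In BALB.K 0, 3 and 4 fell and 4, 4 and 4 rose at 300, 400 and 800 cGy. Of all features 23.0% to 28.4% fell and 18.7% to 25.8% rose in B10.BR and 26.0% to 29.2% fell and 20.7% to 29.2% rose in BALB.K, and the rises in both strains and the falls at 400 and 800 cGy in BALB.K lie near the background. Their summed signal was 154.6 to 181.7 in B10.BR at 0 cGy, 135.4 to 165.3 at 300 cGy, 143.7 to 156.2 at 500 cGy and 138.4 to 158.2 at 900 cGy, and 136.6 to 155.3 in BALB.K at 0 cGy, 129.8 to 147.5 at 300 cGy, 138.7 to 147.1 at 400 cGy and 126.5 to 130.1 at 800 cGy. Only the group at 800 cGy in BALB.K did not overlap with its unirradiated group. Cd209a, a lectin of dendritic cells, fell by 1.39 ± 0.13 and Ly75, an uptake receptor, rose by 0.85 ± 0.18 at 300 cGy in B10.BR, and Esam and Batf3 rose by 0.73 ± 0.14 and 0.70 ± 0.08 in BALB.K.

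Of 10 NK cell markers 6, 7 and 6 rose and 0, 0 and 2 fell at 300, 500 and 900 cGy in B10.BR. In BALB.K 4, 4 and 4 rose and 0, 5 and 6 fell at 300, 400 and 800 cGy. Of all features 18.7% to 25.8% rose and 23.0% to 28.4% fell in B10.BR. In BALB.K 20.7% to 29.2% of all features rose and 26.0% to 29.2% fell. Gzmb, a granzyme, rose at 300 cGy by 1.65 ± 0.17 in B10.BR and by 1.15 ± 0.17 in BALB.K, and Fcer1g, an adaptor of Fc receptors that myeloid cells share, by 1.05 ± 0.11 and 1.24 ± 0.11. The list's summed signal was 133.8 to 141.8 at 900 cGy against 86.96 to 102.7 at 0 cGy in B10.BR. In BALB.K it was 125.9 to 131.8 at 800 cGy against 71.37 to 82.82 at 0 cGy. The list's median change at these doses was 0.40 in B10.BR and -0.70 in BALB.K. The BALB.K sum was thus higher although the median gene of the list was lower.

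Over the doses 23.0% to 28.4% of all features fell in B10.BR and 26.0% to 29.2% in BALB.K. The 7 erythroid markers measured, of 8 listed, fell at every dose, except 1 of them at 900 cGy in B10.BR. Their sum was 7.083 to 7.362 at 900 cGy against 64.48 to 82.63 at 0 cGy in B10.BR and 9.846 to 11.07 at 800 cGy against 221.6 to 279.9 at 0 cGy in BALB.K. Klf1, Ahsp and Rhd were among those not above background on all arrays. Rhd, a blood group protein, and Ahsp, which stabilises alpha globin, fell at 300 cGy in both strains, and no fold is given for them. The part that any of these cell types had in the levels of Cd4, of the CD8 genes or of the CD3 genes was not tested.

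Across the 24 arrays, which share the doses, strains and slides, the 9 falling genes followed each other, with Pearson's r between 0.656 (Cd2 and Cd5) and 0.983 (Cd3g and Skap1). Cd4 had an r of -0.627 to -0.097 with the others. Among 19762 features with a gene name, the 5 with the highest r to Cd8b1 were Dapl1 (0.986), Fcrla (0.986), Bcl11a (0.981), Klk8 (0.978) and Lck (0.978). The 5 most like Cd3e were Cd5 (0.971), Bcar3 (0.968), Trav13n-1 (0.967), Tmsb15b2 (0.966) and Sept1 (0.965), of which Trav13n-1 is a variable segment of the T cell receptor alpha chain. Trav13n-1 changed by -3.20 ± 0.20 at 900 cGy in B10.BR and by -2.46 ± 0.20 at 800 cGy in BALB.K. The 5 most like Cd4 had a lower r, at 0.891 for Ankrd52, 0.877 for Olfr576, 0.875 for Scpep1, 0.868 for 9330102E08Rik and 0.866 for LOC547349. These correlations describe the arrays and were not tested.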

How the data were processed

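Per the file headers, Agilent Feature Extraction 10.5.1.1 made the deposited intensity values, whose processed signal was used. In the deposited matrix the log2 values matched that signal, scaled as described next, within 0.01 for 29588 of 29588 features once a constant per probe and strain and an offset per array of -0.02 to 0.023 were removed. It is therefore no separate measurement, and within-array differences from it are the same by construction.

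The processed signal was taken as log2 minus the array's 75th percentile. Marked spots were left out (7 on second probes of these genes and 0 on the probes used), spots of a probe were averaged, and 42319 of 55681 probes were kept as well above background on every array of at least 1 group, including all 14 described. Each gene was represented by its brightest probe on average, which gave 29588 features. A mean per group was fitted over the 24 arrays by limma 3.58.1 under R 4.3.3 and its package data.table (version 1.17.8). Variances were moderated by empirical Bayes, and two-sided p-values were adjusted by Benjamini-Hochberg within each of 13 comparisons and called at 0.05. Precision is limited by the 3 arrays of a group. Differences within an array were compared by exact permutation.

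The members and the 8 gene lists were chosen with earlier results of these data known. The text names all members, the signalling genes Lck, Zap70, Lat, Fyn and Cd28, the 2 called genes of every other list with the largest change at 300 cGy in each strain, and 5 genes most like Cd8b1, Cd4 and Cd3e. Some items that this rule covers are not reported here.

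Tested on simulated data for B10.BR at 300 cGy against 0, with 29588 features, 69 of 100 genes changed by 1 on the log2 scale were recovered, as were 93 of 100 changed by 2, and 5.81% of the calls were of unchanged genes. No other features were changed in the simulation, and its noise was normal and independent between features. In the data 23.0% of all features fell and 18.7% rose in that comparison, so these recovery rates do not carry over to it. Replicate numbers come from the sample titles. The residuals of same-numbered arrays correlated above 0.1 in all 3 pairs in 1 of 11 comparisons, B10.BR at 900 against 500 cGy (0.206, 0.121 and 0.239), where the block left the count of called members at 8.

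Alternatives for scaling were the median, quantile normalization and 10 spike-in probes. The others were normexp (offset 50), another dim-probe filter, keeping marked spots, averaging the probes of a gene, separate probes, fits on only the arrays compared, robust moderation with a trend, the slide as a block, as a random block or within a slide, a replicate block, BALB.K arrays with or without Y-linked signal, the deposited matrix, and each array left out.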

Additional observations from a re-analysis of the deposited data

Results flagged for a closer look

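The change at 300 cGy differed between the strains for 4 of the 10 genes (4.87% of all features were lower in this difference). Between the highest doses, which were not the same, it differed for 5 of the 10 (5.93% of all features were lower). Both counts are by the test of the difference itself, in which a negative value means a larger fall in B10.BR. At 300 cGy the differences that passed were -0.97 for Cd3d, -0.65 for Cd3g, -0.54 for Cd5 and -0.47 for Cd3e, with adjusted p of 0.0144, 0.015, 0.0212 and 0.0482. Between 900 cGy in B10.BR and 800 cGy in BALB.K, which are unequal doses, they were -0.99 for Cd8b1, -0.93 for Cd3d, -0.86 for Cd3e, -0.81 for Cd5 and -0.69 for Cd8a, with adjusted p of 0.00156, 0.0163, 0.000977, 0.00118 and 0.000937. With the slide as a block the values at 300 cGy were -0.54 for Cd3d, -0.46 for Cd3g, -0.43 for Cd5 and -0.47 for Cd3e (adjusted p of 0.194, 0.117, 0.103 and 0.128). Those at the highest doses were -0.92 for Cd8b1, -0.42 for Cd3d, -1.05 for Cd3e, -0.93 for Cd5 and -0.45 for Cd8a (adjusted p of 0.138, 0.675, 0.067, 0.0568 and 0.304), so that none of the 9 passed in that fit.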

How the results depend on the processing

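The counts of called members against 0 cGy stayed within 1.5 times under each alternative except in BALB.K at 300 cGy, where 8 became 5 with spike-in scaling, 5 with only the arrays compared, 4 within slide 2 and 5 with the BALB.K arrays without Y-linked signal. The steps and the differences between strains moved more. With spike-in scaling the counts were 0 for 300 to 500 cGy and 2 for 500 to 900 cGy in B10.BR, 0 for 300 to 400 cGy and 3 for 400 to 800 cGy in BALB.K, and 0 for both differences of changes. With only the arrays compared they were 0 for 300 to 500 cGy, 4 for 500 to 900 cGy, 0 for 300 to 400 cGy and 0 for the difference at 300 cGy. With the slide as a block both differences of changes had 0. Within a slide the counts were 2 for 300 to 500 cGy and 0 for 500 to 900 cGy, where 1 array at 500 cGy was left. With the BALB.K arrays that had Y-linked signal they were 0 for 300 to 400 cGy, 3 for the strains at 0 cGy and 0 for the difference at 300 cGy, and the deposited matrix, fitted within a strain, gave 3 for 300 to 400 cGy. The scaling moved the split of called features: with spike-in scaling 85%, 78.8% and 78.6% of them were higher at 300, 500 and 900 cGy in B10.BR (44.8%, 45.2% and 47.7% with the 75th percentile), 62.5% and 76.5% at 400 and 800 cGy in BALB.K (49.6% and 50.1%) and 5.7% between the strains at 0 cGy (42.4%). With median scaling the split was 61.8% at 300 cGy in BALB.K (44.3%) and 69.2% between the strains. The cause of these moves was not tested beyond the smaller numbers of arrays in the fits that leave some out. For most of these counts the number of all features passing in the same fit is not given here. A lower count therefore cannot be read as particular to these genes.

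With each array left out, the lowest and highest counts in B10.BR were 8 and 9 at 300 cGy, 9 and 10 at 500 cGy and 9 and 10 at 900 cGy. In BALB.K they were 7 and 8 at 300 cGy, 8 and 9 at 400 cGy and 9 and 9 at 800 cGy. The ranges were 3 to 7 and 8 to 8 for the steps in B10.BR and 3 to 7 and 8 to 8 in BALB.K, 3 to 5 for the strains at 0 cGy, and 2 to 4 and 5 to 5 for the differences of changes.

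In the paired analysis with a replicate block the counts against 0 cGy were 9, 10 and 9 in B10.BR and 8, 9 and 9 in BALB.K, and the steps had 7 and 8 in B10.BR and 6 and 8 in BALB.K. The block moved no count of called members by over 1.5 times.

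Cd8a minus Cd3e in B10.BR did not pass with the mean of a gene's probes (-0.20, adjusted p = 0.409). In BALB.K it did not pass without replicate 2 or 3 at 0 cGy (adjusted p = 0.0727 each, exact permutation). In BALB.K within slide 2, with 1 irradiated array, Cd8a minus Cd4 was -0.95, Cd8b1 minus Cd4 -1.91, Cd8a minus Cd3e -0.55 and Cd8b1 minus Cd3e -1.51. With the BALB.K arrays without Y-linked signal the same differences were -1.21, -2.03, -0.60 and -1.42. With those that had it they were -2.06, -3.30, -0.86 and -2.10. Every BALB.K array at 800 cGy had that signal, so the set without it held none at that dose. Dose and Y-linked signal thus cannot be told apart between these sets. These designs are too small to pass (adjusted p of 0.5, 0.133 and 0.333 from exact permutation). Leaving out an array gave, in the same order, -1.82 to -1.55, -2.82 to -2.52, -0.89 to -0.73 and -1.90 to -1.69 in BALB.K and -2.45 to -2.13, -3.45 to -3.03, -0.69 to -0.56 and -1.69 to -1.47 in B10.BR. Between the strains at 0 cGy, spike-in scaling turned Cd3g to -0.31 and Skap1 to -0.62.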
